A study of Mus musculus with 6 samples.

Results

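The genes described here encode matricellular proteins, secreted proteins that sit in the extracellular matrix and modulate how cells attach to it, together with the thrombospondins and the adhesive and proteoglycan partners fibronectin and versican. The 10 members were Thbs1, Thbs2, Thbs3, Sparc, Sparcl1, Spp1, Tnc, Postn, Fn1 and Vcan. They were chosen by name, with earlier results of these data known. A probe set of the array was taken as a member's own when the platform annotation gave it that gene alone, and 9 of the 10 members had at least 1 such probe set among the 18193 genes represented in this way. Spp1, which encodes osteopontin, had no probe set assigned to it here and was not analysed. The 9 measured members had 23 probe sets among the 45037 tested, and the brightest probe set of each gene over the 6 arrays stood for the gene.

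RNA came from mammary gland cells of 9 week old FVB/N mice, sorted with an antibody to CD31, an adhesion molecule of the endothelial surface. In the 3 deleted samples (PyMT;Fsp-cre;Ets2db/loxP) a Cre recombinase driven by the promoter of Fsp1 (S100a4), a gene of fibroblasts that some leukocytes also express, removed the floxed copy of Ets2. In the 3 control samples (PyMT;Ets2db/loxP) no Cre was present. All 6 samples carried 1 inherited Ets2db allele, which is inactive in DNA binding, so the controls held a single intact copy of this transcription factor, and all carried the PyMT oncogene, which drives mammary tumors from the epithelium. The source field of the control samples instead states that there was no oncogene, but PyMT stands in their genotype, which was taken as correct. The comparison asked how loss of Ets2 from tumor fibroblasts bears on gene expression in the neighbouring endothelium, and each difference below is deleted minus control on the log2 scale of the Robust Multichip Average (RMA) signal, where 1 unit is a fold of 2.

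Matricellular proteins are best known in blood vessels as brakes and guides of growth. Thrombospondin 1 and thrombospondin 2 inhibit angiogenesis through the receptors CD36 and CD47, and SPARC and its relative SPARC-like 1 loosen endothelial adhesion and bind collagen. Fibronectin, tenascin C, periostin and versican are laid down in remodelling stroma and in tumors, largely by fibroblasts, although endothelial cells make several of them. Their signals reach cells through integrins, CD44 and syndecans.

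The sorted samples carried endothelial markers and also RNA of other cells. All 12 endothelial markers examined were brighter than the median probe set (7.03), with means from 11.0 to 13.2, as were all 10 epithelial, 10 of 12 fibroblast and 9 of 10 macrophage markers. Means ran from 8.5 to 13.8 over the epithelial, 6.6 to 12.5 over the fibroblast and 7.0 to 11.8 over the macrophage markers. Control replicate 3 lay farthest out among the arrays. It was at 70.2 on the first principal component, with deleted replicate 2 next at 35.8 and the other arrays at -37.1 to -3.56. Control replicate 3 also had the largest gap between the 3' and 5' control probe sets of Gapdh, 1.31 against 0.75 to 1.01 elsewhere. Such a gap widens as RNA is more degraded. Precision is limited by how few arrays there are: the median probe set had a 95% interval reaching 0.45 to either side of its difference. Nothing in the sources used here ties the samples to litters or days, so the p-values below speak for these 3 and 3 samples only. In its moderated test limma moves the variance of each probe set toward a value typical of all probe sets. The intervals of members that vary little, such as Sparc, are widened by this.

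Fibronectin and versican were the members with the largest differences, both lower in the deleted samples. Sparc and Sparcl1 were the most even at their brightest probe sets. Of the 9 members, 4 were lower and 5 higher in the deleted samples, with a median difference of 0.05, whereas 49.1% of all represented genes were lower and their median difference was 0.00. Without control replicate 3, 5 members were lower and the median was -0.000527. None of the 9 passed limma's moderated test at an adjusted p under 0.05, and neither did any other probe set (0.0% of those tested, smallest adjusted p 0.9999). At an unadjusted p under 0.05 by limma there were 2 members, Fn1 and Vcan, against 1.79% of the represented genes. The count among the 9 members became 0 without deleted replicate 2, without deleted replicate 3 or without control replicate 3, and 1 without any one of the other arrays. The 1.79% holds for the fit to all 6 arrays, and no such share is given for these smaller fits. Over all 23 member probe sets the count was also 2, where 2.07% of all probe sets reached that p. No member reached a fold of 2, and only 0.129% of probe sets combined such a fold with an unadjusted p below 0.05. The groups did not overlap for 3 members, Fn1, Vcan and Thbs3, each lower in all deleted arrays, against 2.7% of represented genes that were lower without overlap and 6.07% without overlap in either direction. No further member probe set was without overlap, and over all probe sets the share was 6.44%, of which 2.83% of probe sets lay lower in the deleted samples. At 3 arrays against 3, an exact two-sided permutation test gives such a gene p = 0.1, the smallest that this design allows.

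**Figure D1:**
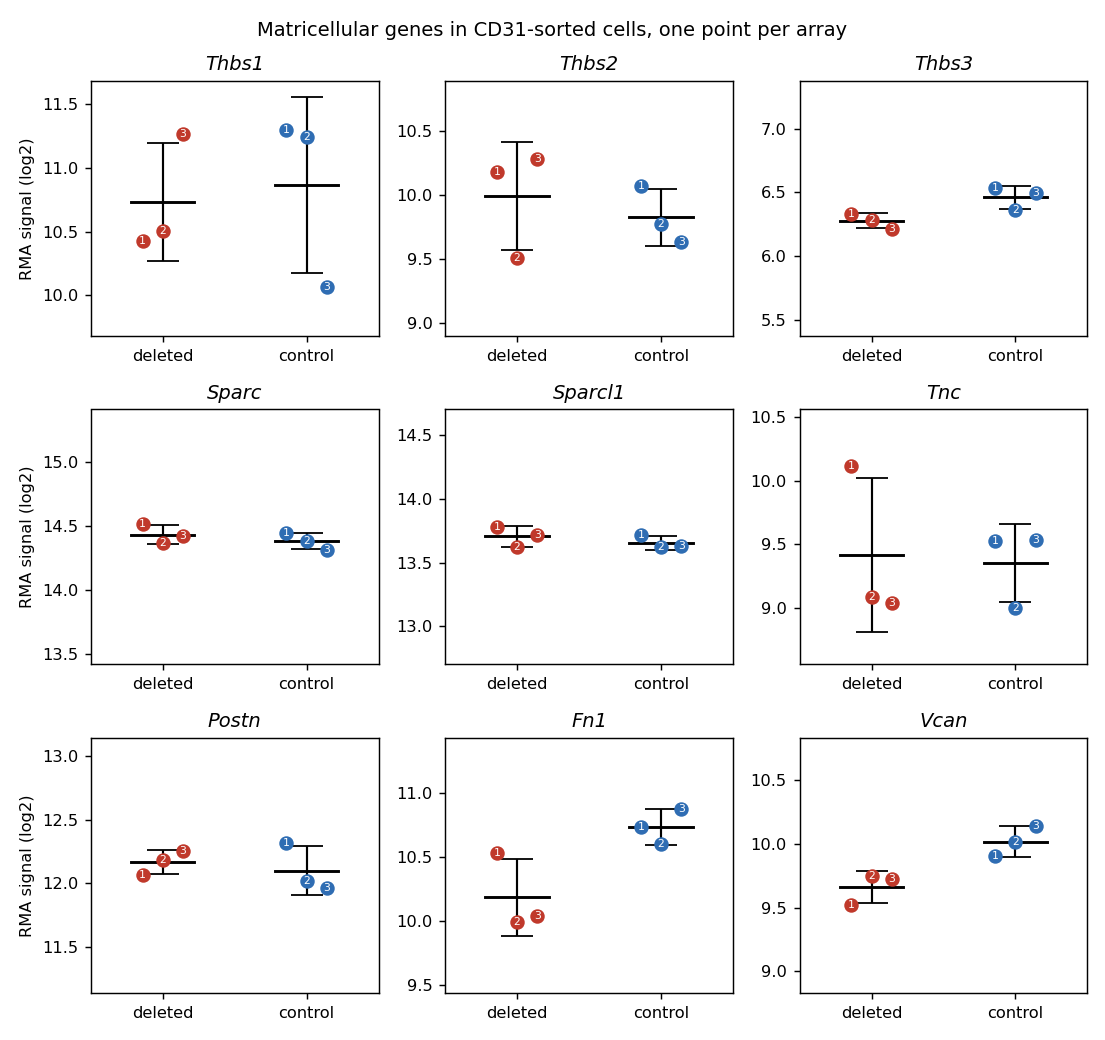
RMA signal (log2, vertical axis) of the 9 measured members on each array, with deleted samples in red, control samples in blue, the replicate number inside each point, and black lines marking the group mean with its SD (n = 3). Every panel spans 2 log2 units, so that Sparc and Sparcl1 are seen to vary least and Thbs1 and Tnc most, and the groups are apart only for Fn1, Vcan and Thbs3.

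Fn1, the gene of fibronectin, the adhesive dimer that integrin-bearing cells assemble into fibrils, had the largest difference among the members. Its brightest probe set (1426642_at) read 10.53, 9.99 and 10.04 in deleted replicates 1 to 3, against 10.73, 10.60 and 10.88 in control replicates 1 to 3. All 3 deleted arrays were therefore below all control arrays, with deleted replicate 1 and control replicate 2 the closest. The group means were 10.19 ± 0.30 in deleted and 10.74 ± 0.14 in control samples (SD, n = 3 each), a difference of -0.55 (SE 0.19, 95% interval -0.996 to -0.108), which is 1.47-fold lower. limma gave an unadjusted p of 0.0215 and an adjusted p of 0.9999. A dimmer Fn1 probe set (1437218_at) read 4.49, 4.26 and 5.71 in deleted samples and 5.50, 5.21 and 5.59 in control samples. There the highest array of all was deleted replicate 3, so the groups overlapped, with a difference of -0.62 (SE 0.37). In bulk RNA of this kind, fewer cells that make a transcript and less of it per cell cannot be told apart.

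Vcan, the gene of versican, a large chondroitin sulfate proteoglycan that binds hyaluronan, was lower as well at its brightest probe set (1427256_at). It read 9.52, 9.75 and 9.72 in deleted samples, against 9.90, 10.01 and 10.14 in control samples, again with no overlap. The means were 9.66 ± 0.12 in deleted and 10.02 ± 0.12 in control samples (SD, n = 3 each), a difference of -0.36 (SE 0.14, 95% interval -0.69 to -0.02), with an unadjusted p of 0.0413 and an adjusted p of 0.9999 by limma. The 7 other Vcan probe sets did not all follow. The one at 8.49 read 9.16, 8.34 and 8.10 in deleted samples and 8.32, 8.63 and 8.40 in control samples, so deleted replicate 1 was the highest array and the difference was 0.09. The next, at 8.42, differed by -0.26, and the 5 below the median signal differed by -0.58 to 0.03, all 7 with overlap. With the mean over all its probe sets in place of the brightest, Vcan differed by -0.20.

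Thbs3, a pentameric thrombospondin without the type 1 repeats that carry the antiangiogenic activity, was the third member whose groups did not overlap, but the step was small and the probe set (1416623_at) dim. It read 6.33, 6.29 and 6.21 in deleted samples and 6.53, 6.36 and 6.50 in control samples. Deleted replicate 1 and control replicate 2 were again the closest. The difference was -0.19 (SE 0.13, 95% interval -0.49 to 0.12), with an unadjusted p of 0.197 by limma.

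The promoters of Vcan and Thbs3, members without overlap between the groups, are printed with that of Sparc, an even member, since the deleted factor belongs to the Ets family, whose proteins recognise the letters GGAA. Each window is RefSeq sequence of build GRCm38.p6, from 250 bases before to 50 after an annotated transcript start, read in the direction of the gene. For Thbs3 and Sparc that start is the outer end of the gene, which lies at 89215180 and 55420080, whereas the Vcan window lies wholly inside the annotated gene (chr13:89655309-89743027), at a start downstream of its outer end. Capitals mark GGAA and its reverse complement TTCC, which share no letter at any match. The Vcan window is chr13:89742463-89742762 on the minus strand, the Thbs3 window chr3:89214930-89215229 on the plus strand and the Sparc window chr11:55420031-55420330 on the minus strand.
Vcan: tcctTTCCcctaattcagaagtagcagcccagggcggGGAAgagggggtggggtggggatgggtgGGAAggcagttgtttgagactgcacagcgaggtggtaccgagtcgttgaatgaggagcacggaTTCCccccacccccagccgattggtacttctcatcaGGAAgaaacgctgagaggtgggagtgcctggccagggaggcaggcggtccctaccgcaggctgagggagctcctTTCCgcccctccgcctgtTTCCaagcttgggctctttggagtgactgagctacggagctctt
Thbs3: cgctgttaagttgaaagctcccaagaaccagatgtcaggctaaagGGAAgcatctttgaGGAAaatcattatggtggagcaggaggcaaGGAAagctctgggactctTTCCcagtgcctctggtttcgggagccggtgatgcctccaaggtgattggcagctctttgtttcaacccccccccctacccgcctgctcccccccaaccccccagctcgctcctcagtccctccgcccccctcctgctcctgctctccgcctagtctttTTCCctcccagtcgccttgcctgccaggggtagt
Sparc: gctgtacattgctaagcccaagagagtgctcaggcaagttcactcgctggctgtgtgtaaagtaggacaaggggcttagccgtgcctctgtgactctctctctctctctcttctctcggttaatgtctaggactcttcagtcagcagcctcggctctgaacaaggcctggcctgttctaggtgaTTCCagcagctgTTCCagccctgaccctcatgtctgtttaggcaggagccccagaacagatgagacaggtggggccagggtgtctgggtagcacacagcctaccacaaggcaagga
The Vcan window held 7 such matches, 3 as GGAA and 4 as TTCC, the Thbs3 window 5 (3 and 2) and the Sparc window 2, both as TTCC. Other members whose groups overlapped held as many as Thbs3 or fewer, with 5 and 4 in the windows of Tnc, 3 in that of Thbs2 and 2 and 3 in those of Postn. Fn1, the member with the largest difference, had no window here. Letters this short are common, and 96.0% of the 32851 promoter windows of the genome held at least 1 match, with a median of 3. The longer form CCGGAAG, which contains the short one and occurs on either strand in 8.86% of windows, was in none of these 3. A match describes the letters only, and it was fibroblasts, not the sorted cells, in which Cre was meant to act.

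Markers of fibroblasts and of macrophages were lower in the deleted samples, as Fn1 and Vcan were. Tnc, Postn and Thbs2, which fibroblasts also make, differed by 0.06, 0.07 and 0.17 at their brightest probe sets, all with overlap. The dimmer Tnc probe set differed by -0.25, and those of Thbs2 by -0.07 and 0.03. The sign for Tnc turned when deleted replicate 1 or control replicate 2 was left out. All 12 fibroblast markers had a negative difference, with a median difference of -0.42, and 6 of them had no overlap, against 2.7% of represented genes lower without overlap and 49.1% lower at any p. Their mean signal per array lay between 9.22 and 9.39 in deleted samples and between 9.59 and 9.88 in control samples. All 10 macrophage markers were lower too, with a median of -0.73 and 6 without overlap. Their mean signal was 8.43 to 8.96 in deleted and 9.17 to 9.87 in control samples. Both lists were chosen with earlier results of these data known, so their counts beside all represented genes describe the lists and are no test. Defining genes of both cell types were above the median signal, among them Pdgfra (8.26 ± 0.22 in deleted and 8.85 ± 0.27 in control samples) and Csf1r (10.13 ± 0.52 in deleted and 11.00 ± 0.95 in control samples, SD, n = 3 each). Csf1r overlapped between the groups, with control replicates 1 and 2 at 10.42 and 10.48, below deleted replicate 2 at 10.56. Its highest array was control replicate 3, at 12.11, and without that array Fn1 differed by -0.48 and Vcan by -0.29. The part of these cells in the differences of Fn1 and Vcan was not tested. Of the 10 pericyte and smooth muscle markers 2 were lower, with a median of 0.16, and of the 12 endothelial markers 1 was lower, with a median of 0.15. The 7 measured platelet markers, of interest because platelets store thrombospondin 1, had a median of -0.05 with 5 lower. Of 8 leukocyte markers 6 were lower, with a median of -0.45, and of 10 epithelial markers 7 were lower, with a median of -0.14.

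**Figure D2:**
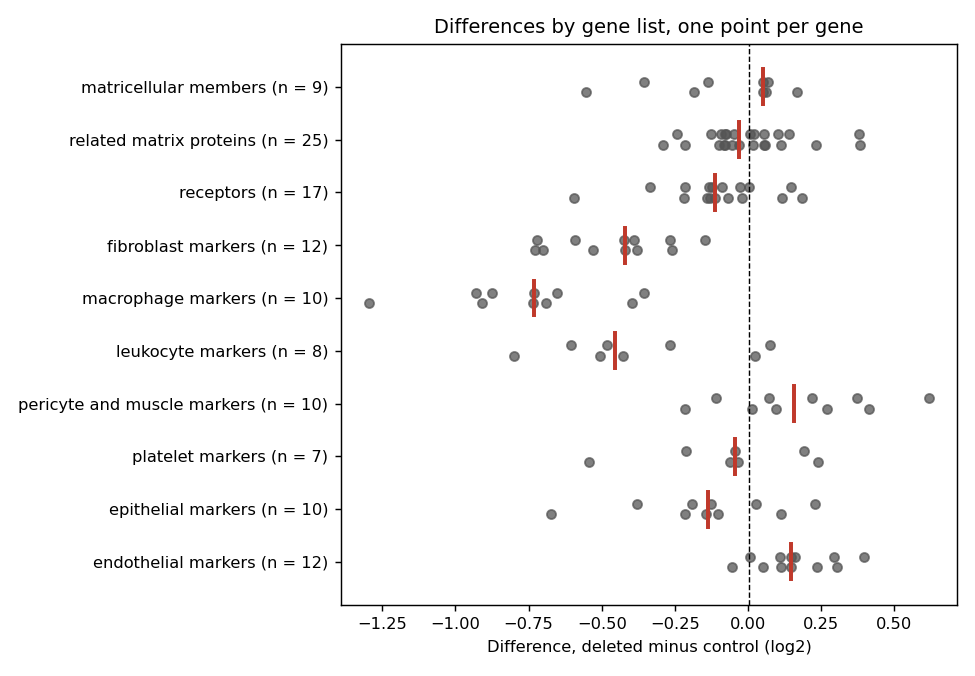
Difference between deleted and control samples (log2, horizontal axis) of each gene in 10 lists, with a red bar at the median of the list and a dashed line at the median of all represented genes. The medians are 0.05 for the matricellular members, -0.42 for fibroblast markers and -0.73 for macrophage markers.

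Thbs1, the gene of the antiangiogenic thrombospondin 1, had the largest SD over the 6 arrays of any member, with an SD of 0.46 within the deleted and 0.69 within the control samples. Its brightest probe set (1460302_at) read 10.42, 10.51 and 11.26 in deleted samples and 11.29, 11.24 and 10.07 in control samples. Deleted replicate 3 thus sat with control replicates 1 and 2 at the high end, and control replicate 3 with deleted replicates 1 and 2 at the low end. The difference was -0.14 (SE 0.38, 95% interval -1.03 to 0.76). It was -0.54 without control replicate 3, and it turned to 0.08, 0.05 or 0.02 without control replicate 1, control replicate 2 or deleted replicate 1. Of the animal identifiers, 2 numbers occur in both groups, and between the arrays that share a number Thbs1 differed by -0.87 and -0.73. With that number as a fixed block the difference was -0.80, with an unadjusted p of 0.0056 and an adjusted p of 0.59 by limma. That fit takes the difference from the arrays with a shared number alone, so control replicate 3 and deleted replicate 3 do not enter it. It leaves very little to estimate the variance from, so its p leans on the variance typical of all probe sets. Nothing in the sources used here says that the number pairs animals. A dimmer Thbs1 probe set (1450377_at) put the same 3 arrays low and the same 3 high, at 6.19, 6.24 and 6.53 in deleted and 6.78, 6.54 and 5.97 in control samples. The 3'-to-5' gap of Gapdh on these arrays was 1.01, 0.85 and 0.78 in deleted and 0.75, 0.88 and 1.31 in control samples. The lowest Thbs1 array was the one with the widest gap and the highest the one with the narrowest, and the part of RNA quality was not tested.

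Thbs2, the other trimeric thrombospondin, a product mainly of fibroblasts and smooth muscle, overlapped fully. Its brightest probe set (1450663_at) read 10.18, 9.51 and 10.28 in deleted samples and 10.07, 9.77 and 9.63 in control samples, a difference of 0.17 (SE 0.24, 95% interval -0.40 to 0.73). Deleted samples held both the highest and the lowest array. Without deleted replicate 2 the difference was 0.41, and without deleted replicate 3 it was 0.02. The other Thbs2 probe sets differed by -0.07 and 0.03.

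Tnc, which encodes tenascin C, a hexameric glycoprotein of healing wounds and tumor stroma, read highest on a single array of the deleted group. The brightest probe set (1416342_at) read 10.11, 9.09 and 9.04 in deleted samples and 9.53, 9.00 and 9.53 in control samples. The difference was 0.06 (SE 0.32, 95% interval -0.68 to 0.81) and turned to -0.29 without deleted replicate 1 and to -0.11 without control replicate 2. Its dimmer probe set (1456344_at) had another order, with control replicate 3 the highest at 8.21 and the other arrays between 6.81 and 7.46, and it differed by -0.25.

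The main probe sets of Sparc and Sparcl1 were among the brightest on the arrays and hardly varied. Sparc (1448392_at) ranked 51 of 45037 probe sets, reading 14.51, 14.37 and 14.42 in deleted and 14.45, 14.39 and 14.32 in control samples, a difference of 0.05 (SE 0.13, 95% interval -0.25 to 0.35). The second Sparc probe set, at a mean of 14.14, differed by 0.06, and a dim one at 7.06 by 0.35, where deleted replicate 1 was the highest at 7.78. Sparcl1 (1416114_at), the gene of hevin, read 13.78, 13.62 and 13.71 in deleted and 13.72, 13.62 and 13.63 in control samples, also a difference of 0.05 (SE 0.13, 95% interval -0.25 to 0.35). The SD over all 6 arrays was 0.07 for the brightest probe set of each of these genes, against 0.23 for the median probe set and 0.53 for Thbs1. It was 0.40 for the dim Sparc probe set. The brightest value of any probe set was 14.9, and whether signals this near the top of the scale still follow the amount of RNA was not tested.

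Postn, the gene of periostin, a ligand of integrins in collagen-rich stroma, overlapped between the groups. Its probe set (1423606_at) read 12.07, 12.19 and 12.25 in deleted and 12.32, 12.02 and 11.96 in control samples. Control replicates held both the highest and the lowest value. The difference was 0.07 (SE 0.15, 95% interval -0.29 to 0.43).

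**Figure D3:**
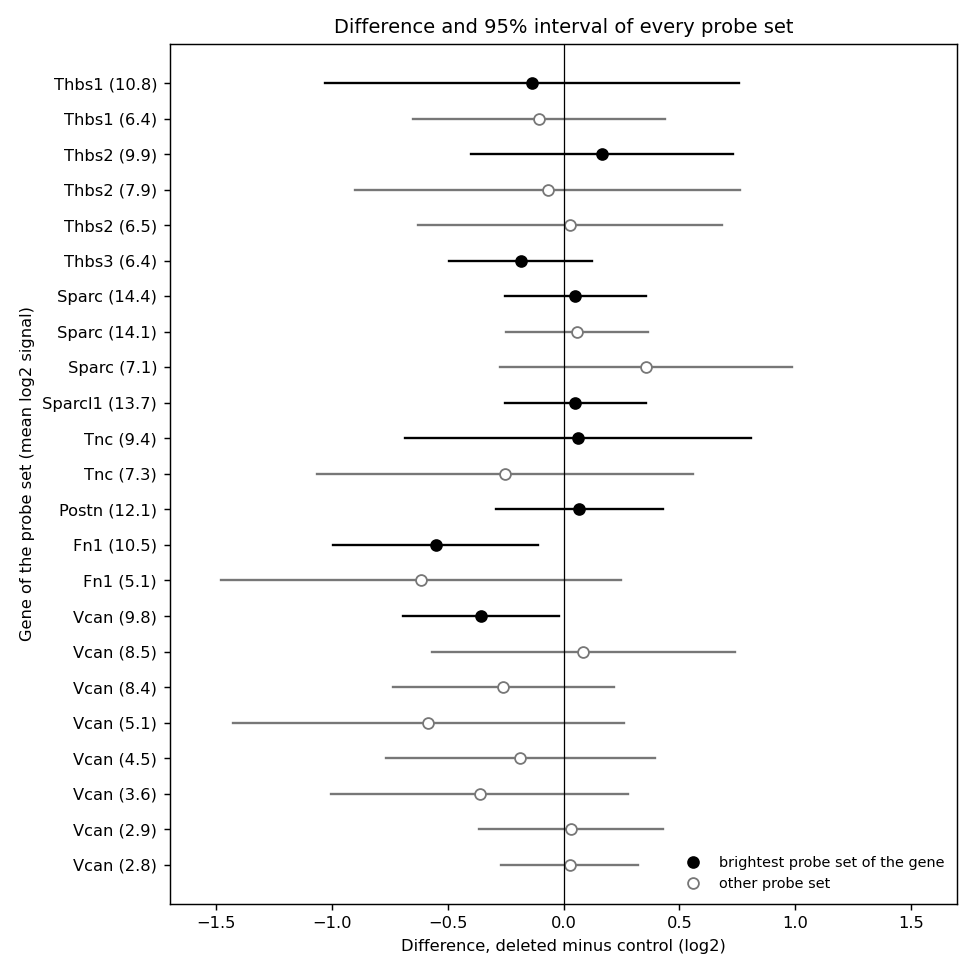
Difference between deleted and control samples (log2, horizontal axis) with its 95% interval from limma for all 23 probe sets of the 9 measured members, the mean signal in parentheses. Filled points are the brightest probe set of a gene and open points its others, and the interval leaves out 0 only at the brightest probe sets of Fn1 and Vcan.

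Among 25 related matrix proteins, namely other thrombospondins, the CCN family, SMOC and SPOCK proteins, fibulins, tenascins and lecticans, 13 were lower and 12 higher in the deleted samples, with a median difference of -0.03. No gene of the list passed limma at an adjusted p under 0.05, and 1 had an unadjusted p under 0.05. That gene was Spock2, a testican that belongs to the SPARC family, with 7.89 ± 0.17 in deleted and 7.51 ± 0.08 in control samples (SD, n = 3 each). Its difference of 0.38 (SE 0.15) was the largest of the list, and its groups did not overlap, against 3.36% of represented genes that were higher without overlap. Ncan, the gene of neurocan, also differed by 0.38, through deleted replicate 2 at 7.01 where the other arrays read 5.98 to 6.26. Mgp, an inhibitor of calcification, differed by -0.29, Tnr by -0.24 at a dim probe set, and Vtn, the gene of vitronectin, by 0.23, all with overlap. The matricellular CCN genes Ccn1 and Ccn2, targets of mechanical signalling, differed by 0.14 and 0.05.

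The receptors of these proteins were mostly a little lower in the deleted samples. Of 17 receptor genes 13 were lower and 4 higher, with a median of -0.11, where 49.1% of all represented genes were lower, and none had an unadjusted p under 0.05 by limma or groups without overlap. Lrp1, an endocytic receptor that clears thrombospondins, differed by -0.60 (SE 0.43), with control replicate 3 at 10.19 and all other arrays between 8.28 and 9.01. Itgb5 differed by -0.34, Itga4 by -0.22 and Itgb1 by 0.18. Itgb3 and Itgav, which form an integrin for fibronectin, periostin and osteopontin, differed by -0.22 and 0.00. Cd36 and Cd47, the receptors of thrombospondin 1, differed by 0.12 and -0.03, and Cd44, a receptor of hyaluronan and osteopontin, by -0.14.

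The 3 members that varied most over the arrays were set beside the genes nearest to them in pattern, by the root mean square difference of the values after each gene's own mean was removed, over 6 arrays and 11287 other genes brighter than the median probe set. Fn1 lay nearest to Col1a2, a chain of type I collagen, at 0.0648, where Fn1 itself varied by a root mean square of 0.34. Col1a2 read 11.55, 11.20 and 11.20 in deleted and 11.80, 11.72 and 12.01 in control samples, the same order of the groups and the same highest array, control replicate 3, as for Fn1. Next to Fn1 came Pid1 at 0.0988.

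For Thbs1 the nearest genes were Sfpq, a nuclear splicing protein, at 0.0835 and Tug1, a long noncoding RNA, at 0.0975. Cd44 was the fourth nearest at 0.122, whereas Cd47 ranked 97 and Cd36 ranked 228 of 11287 genes. Beside Fn1 and Tnc, Cd44 ranked 11059 and 11071. Sfpq read 12.04, 12.13 and 12.84 in deleted and 12.70, 12.73 and 11.69 in control samples, with the same 3 arrays low as for Thbs1. For Tnc the nearest were Dsc3, a desmosomal cadherin of epithelium, at 0.0835 and the kinase Limk1 at 0.125. Dsc3 shared the high value in deleted replicate 1, at 7.80 against 6.58 to 7.22 in the other arrays. With so few arrays and so many genes a close match is easily found, and these values describe the arrays only.

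**Figure D4:**
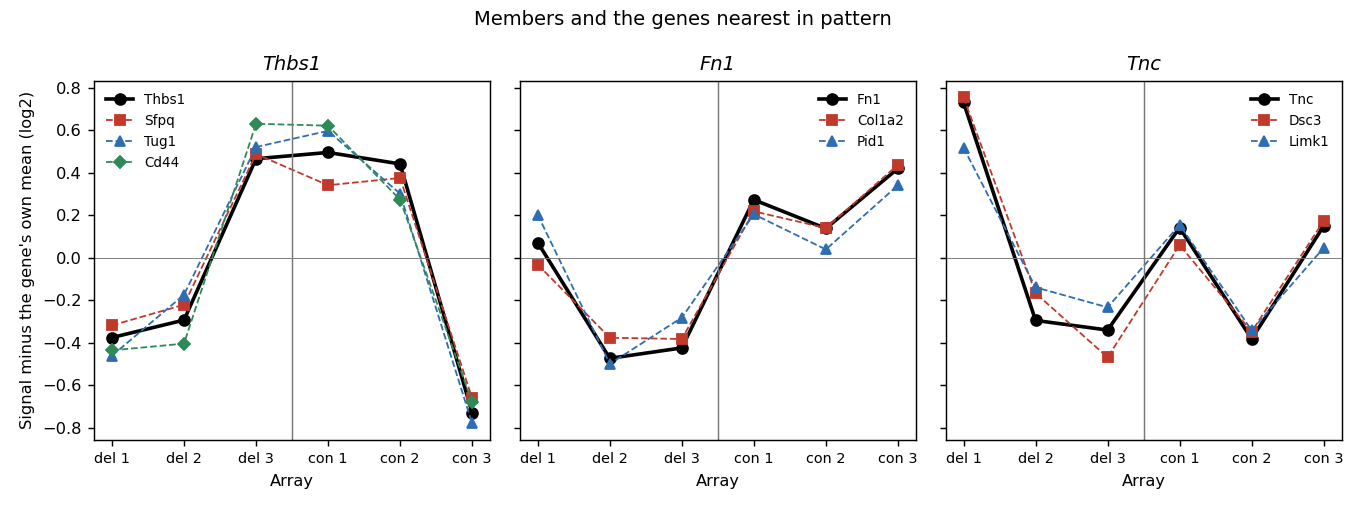
Signal minus the gene's own mean over the 6 arrays (log2, vertical axis) on each array, deleted (del) left and control (con) right, for Thbs1, Fn1 and Tnc in black and for the genes nearest to each in color. Lines join the points of a gene and carry no order between replicates. Col1a2 follows Fn1 within a root mean square of 0.0648.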

How the data were processed

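The authors deposited 1 table of log2 values from Affymetrix mouse genome arrays. They were made with RMA (background correction, quantile normalization, then a robust summary over the probes of a set), whose version no source used here gives. RMA narrows differences at dim probe sets, and probe sets differ in their response, so a rank of brightness or a place against the median probe set describes signal and is no measure of transcript amounts between genes. Array medians lay between 7.02 and 7.07, so no scaling was added, and no pair of arrays shared over 0.218% of its values.

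After 64 array controls were left out, 45037 of 45101 probe sets were tested with limma 3.58.1, run under R 4.3.3, as a two-sided lmFit and eBayes comparison of the groups without covariates or filter, adjusted by Benjamini-Hochberg over all of them. The step was tested on simulated data. A single gene was annotated for 34945 probe sets, several for 932 and none named here for 9160, and 34741 were matched by gene number to current RefSeq symbols (GRCm38.p6). A further probe set annotated to Thbs1 and another gene was left out. Promoter windows from RefSeq were found for 7 of the 10 members. Figures were drawn with matplotlib 3.10.9.

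The members and lists were chosen with earlier results of these data known. Genes named were the members, the 5 largest differences of the related and of the receptor list, Cd36, Cd47, Cd44, Itgav and Itgb3, and the 2 genes nearest in pattern to the 3 members with the largest SD. Ccn1, Ccn2, Pdgfra, Csf1r and the ranks of Cd36, Cd47 and Cd44 were chosen after their values were seen. Alternatives covered leaving out each array, array weights, centring arrays on their medians, quantile normalization once more, dropping probe sets below the median, another prior (trended and robust), an unmoderated test, a fixed or random block for the identifier number, the mean over probe sets and other thresholds.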

Additional observations from a re-analysis of the deposited data

How the results depend on the processing

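Over 15 alternatives the 9 members gave 134 differences, of which 125 kept their sign and 9 turned, and no member passed an adjusted p under 0.05 by limma under any of them. Fn1, Vcan, Thbs3, Sparc and Sparcl1 kept their sign throughout. With 1 array left out Fn1 ranged from -0.73 to -0.45, Vcan from -0.41 to -0.28, Thbs3 from -0.24 to -0.15, Thbs1 from -0.54 to 0.0763, Tnc from -0.29 to 0.25, Postn from -0.000527 to 0.18 and Thbs2 from 0.02 to 0.41. Tnc turned to -0.0943 with the mean over its probe sets. Thbs3 gave no value under the filter on dim probe sets, which it does not pass.

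The number of members at an unadjusted p under 0.05, 2 in all, was 1 with the filter on dim probe sets, the trended and robust prior, median centring or the mean over probe sets, and 0 to 1 with an array left out. It was 3 with the unmoderated test, which added Thbs3. Fn1 stayed below 0.05 with those 4. The share of all genes at that p is given here for the main fit only. Member counts under another setting therefore have no share to be read against. The 58 probe sets at a fold over 2 and p under 0.05 became 15 with the filter, 152 with array weights, 23 with the unmoderated test and 61 to 191 with an array left out, 934 lay at p under 0.05 at any fold and 87 past that fold at any p. The causes were not tested.

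Animal identifiers of 2 arrays in each group share a number. The deviations of same-numbered arrays correlated at 0.17 and -0.02 across probe sets. With so few arrays these values cannot settle whether the numbers mark pairs, and the main comparison did not pair the arrays. With the number as a fixed replicate block the 58 became 317. The count of members at an unadjusted p under 0.05 by limma became 1, which was Thbs1 with a difference of -0.80. No share of all genes at that p is given for this fit. Thbs2 turned to -0.0779 and Postn to -0.0429. This fixed block takes every difference from the arrays with a shared number alone, without control replicate 3 and deleted replicate 3. With the number as a random replicate block, Fn1 differed by -0.54.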
